A study of Homo sapiens with 30 samples.

Results

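Some of the human genome assembly lies outside the numbered and sex chromosomes: short unplaced sequences (named chrUn), sequences assigned to a chromosome but not to a position in it (named random), alternative haplotypes, and the mitochondrial genome (chrM). Peaks on these sequences were taken from 36 deposited peak lists by the sequence name alone. They numbered 7413 of 753991 peaks, of which 5824 of 594893 were in 30 SEACR lists and 1589 of 159098 in 6 MACS2 lists. The unplaced and random sequences are together called contigs here. SEACR peaks lay on 55 contigs, 38 unplaced and 17 random, and on the mitochondrial genome. No haplotype sequence held a peak in any list.

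The lists came from CUT&Tag libraries of K562, an established human chronic myeloid leukaemia line, with 500000 cells in each experiment. In CUT&Tag an antibody tethers a transposase to chromatin, and the transposase inserts sequencing adapters into the DNA beside it. Histone H3 acetylated at lysine 27 (H3K27ac) marks active promoters and enhancers, and its trimethylated form (H3K27me3) marks chromatin silenced by Polycomb. There were 25 H3K27ac libraries, made with 4 antibodies (Abcam-ab177178, Abcam-ab4729, Active Motif 39133 and Diagenode C15410196), and 5 H3K27me3 libraries, made with 1 antibody, CST9733. Antibodies were used at 1/100 or 1/50, the latter for Diagenode only. DNA was extracted with SDS or on a column, and the libraries were amplified for 11, 13 or 15 cycles. At 15 cycles extraction was with SDS, and 4 H3K27ac libraries were from cells given trichostatin A (TSA), which inhibits histone deacetylases. All other cells were untreated. Each condition had 1 library, so p-values measure only the spread among these libraries.

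Mitochondrial DNA is packed into nucleoids by the protein TFAM and carries no histones, so reads from it are not placed by a histone mark. It is present in many copies per cell. Contigs are nuclear chromatin, and many hold repeats or copies of sequence found elsewhere, where short reads are hard to place. The best known of them, chrUn_gl000220, carries a copy of the ribosomal DNA unit, from which the 45S precursor of ribosomal RNA is transcribed. How the authors handled reads with several possible positions is not given here, and signal on a contig was not told apart from signal at its copies.

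Signal is the total that SEACR writes for a peak, which is its coverage summed over its bases. The mitochondrial share is the percentage of a list's whole peak signal, and the contig share is the percentage of its nuclear signal, which leaves chrM out. Lists at 11 and 13 cycles, 20 in all, had been downsampled to a common read depth, per the labels. The H3K27me3 lists were far longer, with 65725 to 107569 peaks against 3211 to 23328 in the H3K27ac lists, and within each protocol the H3K27me3 list had the largest nuclear signal, the denominator of the contig share. Totals without a denominator are therefore given beside the shares.

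The mitochondrial genome was a single SEACR peak in each of the 30 lists, and that peak ran from position 1 to 16571 in all of them. It was the strongest peak in 26 lists and the next strongest in the other 4. Its coverage was even by the measure at hand: the maximum was 1.68 to 2.93 times the mean, with a median of 2.07. In 15 lists the maximum lay between positions 3517 and 3575, in the part of the genome that encodes ND1, a complex I subunit. In 12 lists it lay between 6290 and 6319, in the part that encodes COX1, the catalytic subunit of cytochrome c oxidase. The other 3 lists, all untreated at 15 cycles, had it elsewhere. The 5 H3K27me3 lists used the same positions, with 4 at the first and 1 at the other, so the maximum did not separate the marks. Of the lists at 11 cycles 3 were at the first position and 7 at the other, and at 13 cycles 8 and 2. Of the Diagenode lists 1 was at the first and 6 at the other. These counts were not tested.

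The share of signal on the mitochondrial genome differed between antibodies. In the order SDS at 11 cycles, column at 11, SDS at 13, column at 13 and SDS at 15, the mitochondrial share with Active Motif was 32.8%, 30.1%, 53.9%, 51.8% and 30.9%. With Diagenode at 1/50 it was 40.4%, 45.7%, 37.3%, 60.1% and 8.16%. With ab4729 it was 10.5%, 9.40%, 13.8%, 9.79% and 2.09%. These 5 values lay below all 5 of Active Motif, and below those of Diagenode at 1/50 except its library at 15 cycles. The untreated Diagenode library at 1/100 and 15 cycles had 35.6%. The antibody and mark tests used Diagenode at 1/50 and the other antibodies at 1/100. With ab177178 the mitochondrial share was 2.93%, 10.8%, 2.87%, 2.72% and 1.47%. With the H3K27me3 antibody it was 2.38%, 2.27%, 0.892%, 1.76% and 0.325%, the lowest of the 5 antibodies in every protocol.

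**Figure D1:**
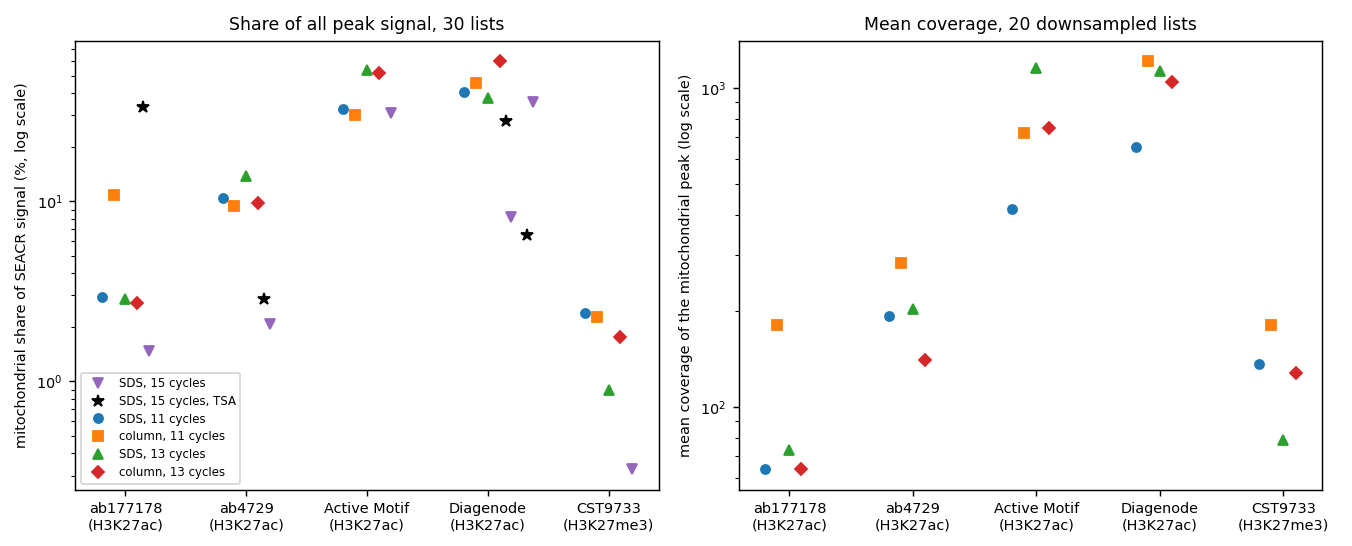
Mitochondrial share of SEACR signal in 30 lists (left, percent, log scale) and mean coverage of the mitochondrial peak in the 20 downsampled lists (right, log scale), by antibody. Each symbol is 1 library and its shape gives the protocol. At left Active Motif and most Diagenode libraries lie high, as does ab177178 with TSA. CST9733 is lowest within each protocol at left, though its range meets those of ab177178 and ab4729. At right Active Motif and Diagenode lie highest, and CST9733 overlaps ab177178 and ab4729.

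The means of the 4 H3K27ac antibodies spanned 3.56 on the log2 scale (permutation test with 100000 resamples of antibody labels within protocols, p = 0.00015, adjusted p = 0.0011 over 10 tests). H3K27me3 differed from the mean of the H3K27ac antibodies by -3.42 ± 0.67 (SD, n = 5 protocols) in log2 share, lower in 5 of 5 protocols (exact within-protocol permutation test, p = 0.00032, the smallest it can give, adjusted p = 0.0011). The mean coverage of the mitochondrial peak has no such denominator. In the downsampled lists it was 417 to 1151 for Active Motif and 653 to 1212 for Diagenode. For ab4729 it was 141 to 283, for ab177178 63.7 to 180, and for CST9733 78.5 to 180. On this measure the spread of the H3K27ac antibodies was as wide (3.52 in log2, permutation test, adjusted p = 0.0016), while H3K27me3 differed from them by -1.40 and did not pass (exact permutation test, p = 0.12, adjusted p = 0.24). The mark difference also missed the threshold among the 3000 strongest peaks of each list (-1.87, adjusted p = 0.057) and as mitochondrial over nuclear signal per covered base (-0.89, adjusted p = 0.31), by the same exact test. One antibody stood for H3K27me3, so mark and antibody cannot be told apart.

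Neither extraction nor cycle number moved the mitochondrial share past the test. Column against SDS differed by 0.27 ± 0.71 in log2 share (SD, n = 10 pairs, higher in 4, exact sign-flip permutation test, p = 0.28, adjusted p = 0.35). At 13 against 11 cycles the difference was -0.16 ± 0.90 (n = 10 pairs, higher in 5, exact sign-flip permutation test, p = 0.60, adjusted p = 0.63). Single pairs differed by more: the column library of ab177178 had 10.8% at 11 cycles, against 2.93% in the SDS library and 2.72% on the column at 13 cycles. Within 11 cycles the column difference was 0.34 ± 0.87 and within 13 cycles 0.21 ± 0.60 (n = 5 pairs each, exact sign-flip permutation p = 0.75 and p = 0.50, where the smallest possible is 0.0625). Within SDS and within column, the cycle difference was -0.09 ± 0.81 and -0.22 ± 1.07 (n = 5 pairs each, exact permutation p = 0.81 and p = 0.88).

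Nuclear contigs carried a small but dense part of the nuclear signal. Their share ranged from 0.850% to 9.35% with a median of 4.37% over the 30 lists, on 42 to 467 peaks and 68.8 to 840 kb of covered sequence. Unplaced sequences held more of it than random ones in 30 of 30 lists. Mean coverage in contig peaks was above that in chromosome peaks in 29 of 30 lists, with a ratio of 0.645 to 2.88 and a median of 1.87. The exception at 0.645 was Active Motif at 15 cycles. Peak width did not set contigs apart: the median contig peak was narrower than the median chromosome peak in 11 of 30 lists.

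chrUn_gl000220, the ribosomal DNA contig, was the leading contig in 28 of 30 lists. It took 9.76% to 53.4% of all contig signal. Among H3K27ac lists its share of nuclear signal ranged from 0.160% to 3.24% with a median of 1.34%. In the H3K27me3 lists it ranged from 0.447% to 0.777% with a median of 0.531%, inside the H3K27ac range. In the other 2 lists, Active Motif and Diagenode at 1/50 at 15 cycles, the leading contig was chr9_gl000199_random, with 29.6% and 22.4% of contig signal.

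The signal of chrUn_gl000220 gathered in 1 stretch. Overlapping peaks of all lists merged into a region at chrUn_gl000220:103055-161802 (hg19, 58748 bp), which held a peak in 30 of 30 lists, and 9782 bases of it were covered in every list. Its share of nuclear signal was 0.137% to 3.18% (median 1.23%) in H3K27ac lists and 0.361% to 0.673% (median 0.461%) in H3K27me3 lists. In untreated downsampled H3K27ac lists the strongest peak began between 116819 and 130357. With TSA the strongest peak began at 103108 (ab177178), 103146 (ab4729) and 103825 (Diagenode at 1/50), and it spanned 40205, 43514 and 36965 bp. The maximum of that peak lay at 106529, 117855 and 105658. In the matching untreated lists the maximum of the strongest peak lay at 129413, 135062 and 130055. The position depends on which peak ranks first: in the TSA lists of ab177178 and Diagenode at 1/50 the next peak had a slightly higher maximum, 70 at 150622 against 60, and 59 at 149678 against 57. The untreated Active Motif SDS list at 13 cycles had its maximum at 118649. The TSA library of Diagenode at 1/100 was unlike the other 3, with its strongest peak starting at 124827 and the maximum of that peak at 135034. The start alone did not separate the treated lists, because the untreated Diagenode list at 1/50 began at 104293 and the H3K27me3 list at 15 cycles at 103177. In 3 of the 5 H3K27me3 lists the maximum of the strongest peak lay between 142033 and 142433, where no H3K27ac list had the maximum of its strongest peak.

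**Figure D2:**
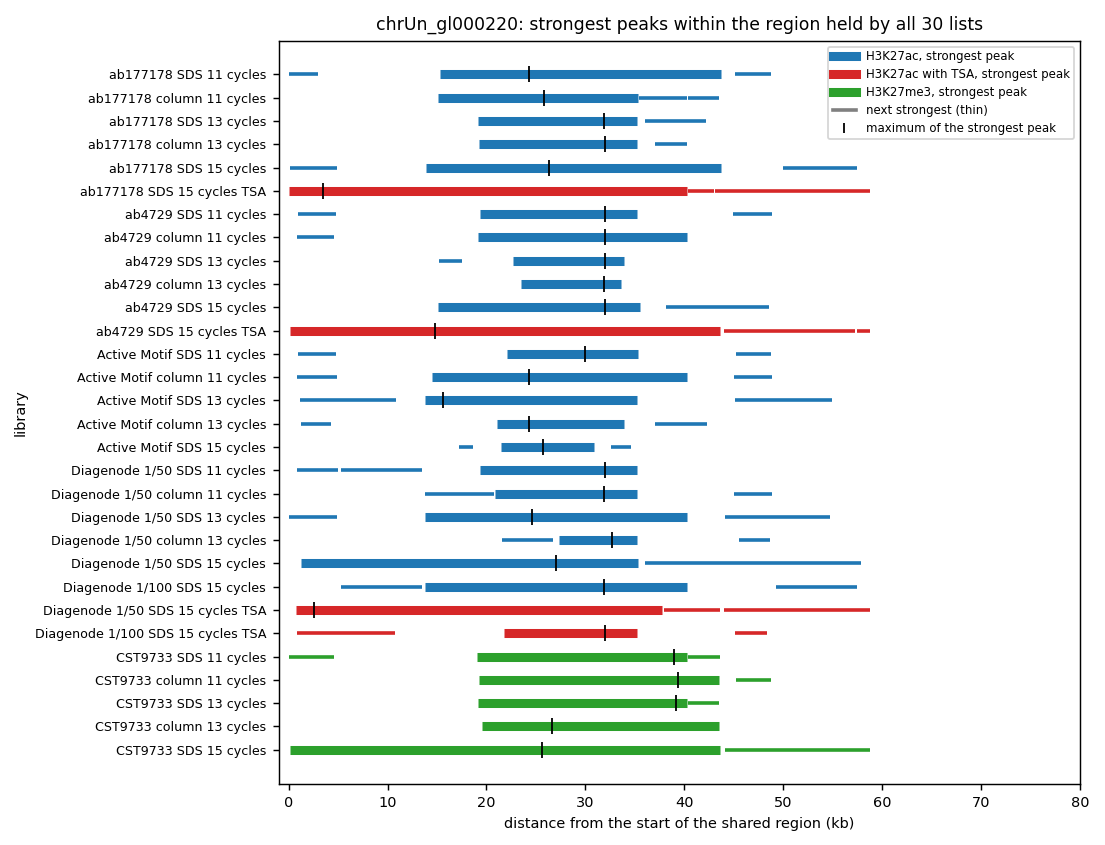
Strongest peaks (up to 3 in each list) inside the chrUn_gl000220 region shared by 30 lists, by library, as distance in kb from the start of the region. Thick bars are the strongest peak, thin bars the next, and black ticks the maximum of the strongest peak. In 3 of the 4 TSA lists the tick lies nearer the start than in the matching untreated list, and in 3 of the 5 H3K27me3 lists toward the far end.

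A further region of the same contig, chrUn_gl000220:5116-8701, also held a peak in 30 of 30 lists. Its share was 0.0156% to 0.116% in H3K27ac lists (median 0.0520%) and 0.0061% to 0.0098% in H3K27me3 lists, so the shares of the marks did not overlap there. Within each protocol the H3K27me3 list had the largest denominator, and totals for this region are not given here.

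The contigs with a peak in 30 of 30 lists numbered 9: chrUn_gl000220, chrUn_gl000216, chrUn_gl000214, chrUn_gl000219, chrUn_gl000224, chrUn_gl000228, chrUn_gl000243, chr7_gl000195_random and chr17_gl000205_random. After chrUn_gl000220, the highest mean shares over the 30 lists were 0.474% for chrUn_gl000225, 0.390% for chrUn_gl000216 and 0.321% for chr9_gl000199_random. chr7_gl000195_random had 0.251%, chr17_gl000205_random 0.245%, chrUn_gl000226 0.240%, chrUn_gl000224 0.187%, chrUn_gl000228 0.177% and chrUn_gl000214 0.165%. chrUn_gl000225 and chrUn_gl000226 each missed 1 list, the column library of ab4729 at 13 cycles, which had the fewest contig peaks of all (42). chr9_gl000199_random missed that list and the SDS list of ab4729 at 13 cycles.

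At the level of regions, contig peaks merged into 659 regions, of which 8 on 7 contigs held a peak in all 30 lists and 266 in 1 list only. Besides the 2 on chrUn_gl000220, they were chr17_gl000205_random:83585-91082, chr7_gl000195_random:27802-34918, chrUn_gl000224:1-19571, chrUn_gl000228:115113-120725, chrUn_gl000216:139978-172220 and chrUn_gl000219:97113-102261. On chr17_gl000205_random and chr7_gl000195_random the shared stretch was compact: 3449 and 2756 bases were covered in all 30 lists. On chrUn_gl000216 no base was covered in all 30 lists, so the lists shared the region and not a position within it. The chr17_gl000205_random region held 0.0736% to 0.484% of nuclear signal in H3K27ac lists and 0.0110% to 0.0187% in H3K27me3 lists. The chr7_gl000195_random region held 0.0630% to 0.346% and 0.0108% to 0.0141%. In both regions every H3K27ac list lay above every H3K27me3 list by share. By total signal of the whole contig in the downsampled lists the marks overlapped. For chr17_gl000205_random it was 73477 to 94687 in H3K27me3 lists and 24130 to 165053 in H3K27ac lists. For chr7_gl000195_random it was 67626 to 90607 and 23819 to 172618. How many of all regions separate the marks by share is not given here. No region had over 50% of its length covered in all 30 lists.

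**Figure D3:**
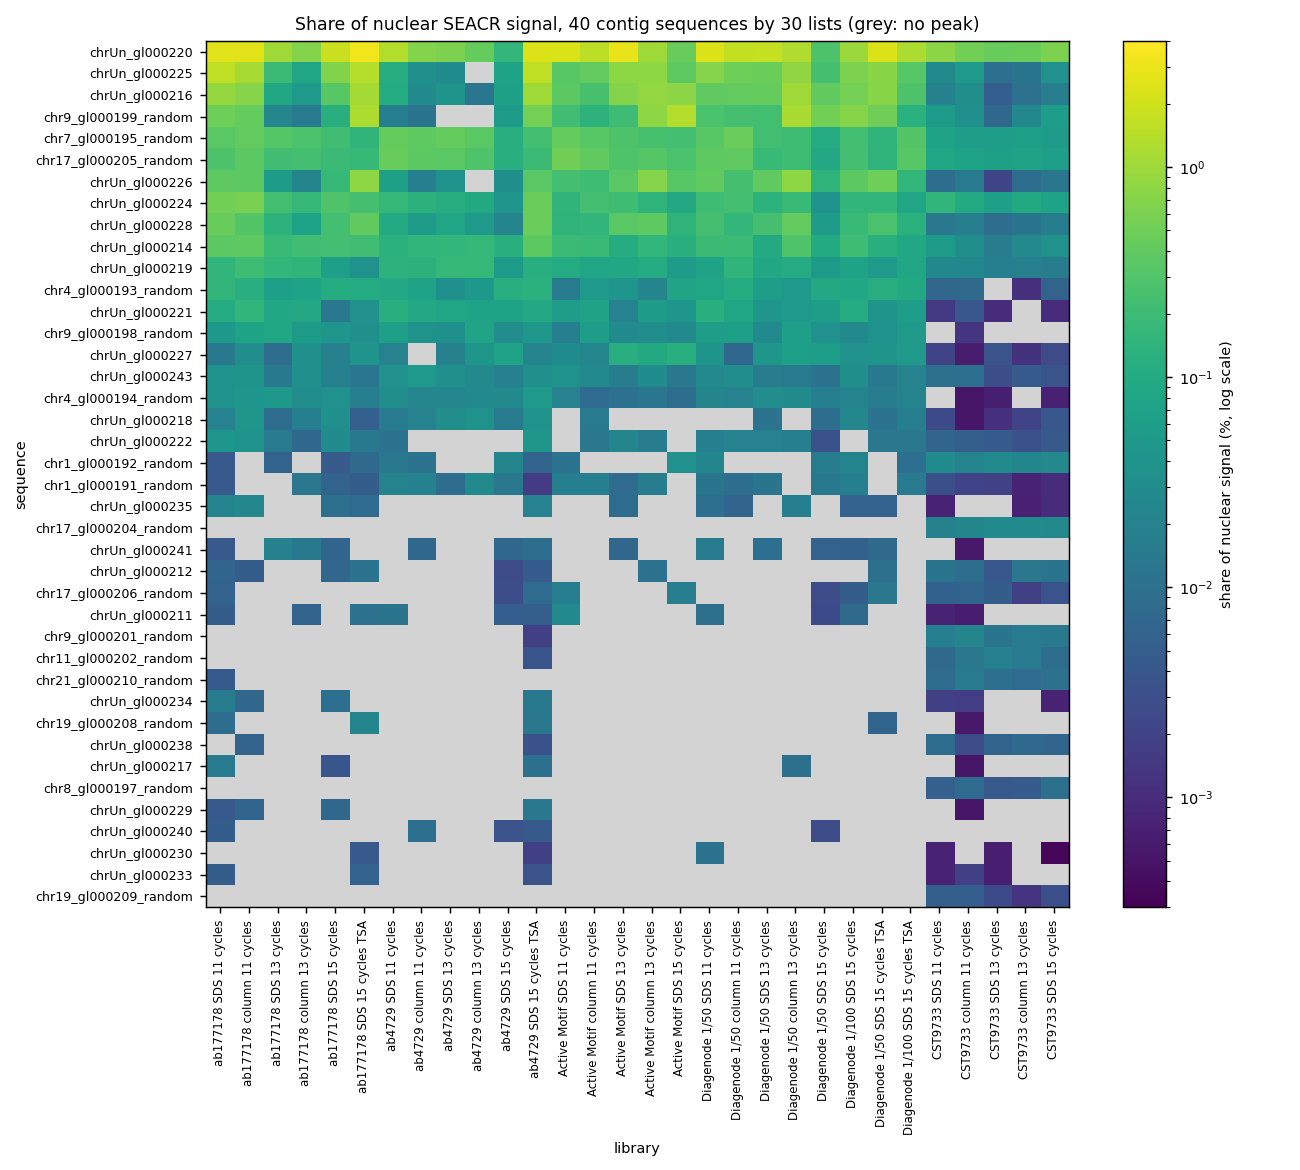
Share of nuclear SEACR signal (percent, log colour scale) of the 40 contigs with the highest mean share, by library. Grey cells had no peak. The first 11 contigs have colour in nearly every list, and a block of contigs lower down has colour in the 5 CST9733 lists and almost none elsewhere.

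Several contigs had peaks in 1 mark only, and 9 had a SEACR peak in H3K27me3 lists and in no H3K27ac list, which is 11.4% of the 79 nuclear sequences, since all 24 chromosomes had both marks. Of these, chr17_gl000204_random, chr8_gl000197_random and chr19_gl000209_random had peaks in 5 of 5 H3K27me3 lists (3.8% of the 79). The last of them carries members of the killer-cell immunoglobulin-like receptor family, receptors of natural killer cells. chr17_gl000204_random had 0.0192% to 0.0298% of nuclear signal, chr8_gl000197_random 0.0042% to 0.010% and chr19_gl000209_random 0.0013% to 0.0053%. chrUn_gl000242 had a peak in 4 H3K27me3 lists, chr9_gl000200_random and chrUn_gl000246 in 3, chrUn_gl000213 and chrUn_gl000215 in 2, and chrUn_gl000248 in 1. A further 3 contigs, chr9_gl000201_random, chr11_gl000202_random and chr21_gl000210_random, had peaks in all 5 H3K27me3 lists and in 1 H3K27ac list. Their shares in H3K27me3 lists were 0.0119% to 0.0223%, 0.0079% to 0.0198% and 0.0083% to 0.0153%.

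The contigs with peaks in H3K27ac lists only numbered 5: chrUn_gl000240 in 5 of 25, chrUn_gl000223 in 3, and chrUn_gl000232, chrUn_gl000237 and chrUn_gl000245 in 1 each. They were 6.33% of the 79 sequences. No H3K27ac-only sequence (0%) was in all 25 lists of its mark. Of the 659 contig regions, 310 (47%) were in H3K27me3 lists only, against 80.1% of all 172017 nuclear regions merged in the same way. In all 5 H3K27me3 lists and no other were 24 (3.64%), against 7.21% of all regions. Regions held by H3K27me3 alone were thus a smaller part of contig regions than of all regions, a difference that was not tested. The strongest of the 24 were chr17_gl000204_random:45711-56022 and chr9_gl000201_random:12004-22257, with medians of 0.0072% and 0.0067%. H3K27ac lists alone held 172 regions (26.1%), against 14.5% of all regions, and 1 of them was in all 25 lists, against 0.0669% of all regions. A peak in all 25 lists is a higher bar than a peak in all 5. That region was chr4_gl000194_random:111335-115744, with 0.0076% to 0.0327% of nuclear signal and a median of 0.0163%. The H3K27me3 lists were also the longest, and the part of list length in these counts was not tested.

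The contig share of nuclear signal was lower in H3K27me3 lists. It was 1.45%, 1.14%, 0.850%, 0.951% and 1.16% with CST9733 (in the same order of protocols). With ab4729 it was 3.48%, 2.36%, 2.30%, 1.94% and 1.29%. With ab177178 it was 8.70%, 8.15%, 3.02%, 2.37% and 4.77%. CST9733 was the lowest of the 5 antibodies in every protocol, though its range met that of ab4729 across protocols. Active Motif gave 5.29%, 4.23%, 6.54%, 5.81% and 4.52%, and Diagenode at 1/50 gave 6.09%, 5.05%, 4.50%, 6.81% and 2.37%. H3K27me3 differed from H3K27ac by -1.86 ± 0.32 in log2 share (SD, n = 5 protocols, lower in 5, exact within-protocol permutation test, p = 0.00032, adjusted p = 0.0011). CST9733 again stood alone for H3K27me3, so mark and antibody cannot be told apart here or in the tests of single contigs below.

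Total contig signal, which has no denominator, did not separate the marks. Total contig signal in downsampled lists was 1121583 to 1462955 for CST9733 and 894445 to 3042670 for ab177178. It was 780512 to 1415967 for Diagenode, 672525 to 1175866 for Active Motif and 417023 to 1063833 for ab4729. CST9733 lay above all 4 ab4729 lists and inside the range of ab177178. The log2 difference turned to 0.35 in favour of H3K27me3 and did not pass (exact permutation test, p = 0.30, adjusted p = 0.34). Among the 3000 strongest peaks of each list the difference in share was -0.83 and did not pass either (exact permutation test, adjusted p = 0.071).

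**Figure D4:**
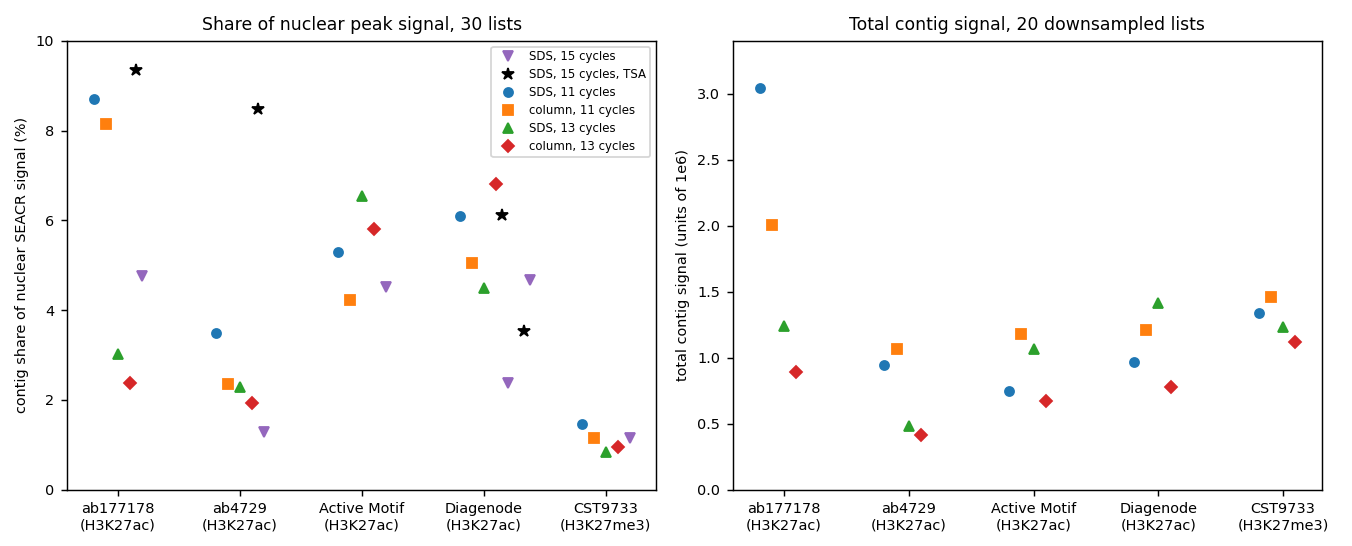
Contig share of nuclear SEACR signal in 30 lists (left, percent) and total contig signal in the 20 downsampled lists (right, in units of 1e6), by antibody. Each symbol is 1 library and its shape gives the protocol. CST9733 lies at the bottom of the left panel and within the H3K27ac range in the right panel.

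The marks were also compared contig by contig. The 26 contigs with a peak in at least 10 SEACR lists were tested together with the 24 chromosomes, 50 sequences in all, and called at an adjusted p under 0.05. Over all 50, the share of nuclear signal differed between the marks for 62%, and 17 of the 26 contigs were among them, close to that background. Of the 17, 3 were higher in H3K27me3, where 24% of all sequences were called higher, and 14 were lower, where 38% were called lower. The median log2 difference was -1.97 over the 26 contigs and -0.53 over all 50 sequences.

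The 3 contigs higher in H3K27me3 were chr1_gl000192_random, chrUn_gl000212 and chr17_gl000206_random. chr1_gl000192_random had 0.0210% to 0.0294% of nuclear signal in H3K27me3 lists and a median of 0.0046% in H3K27ac lists, 14 of 25 of which had a peak on it. Its log2 difference was 2.86 (exact permutation test, adjusted p = 0.0022). chrUn_gl000212 had 0.0039% to 0.0130% in H3K27me3 lists and a peak in 8 of 25 H3K27ac lists, with a log2 difference of 2.67 (exact permutation test, adjusted p = 0.00089). chr17_gl000206_random had 0.0018% to 0.0063% and a peak in 8 of 25 H3K27ac lists, with a log2 difference of 1.63 (exact permutation test, adjusted p = 0.015). In all 3, H3K27ac lists without a peak entered as 0, so the log2 difference rests on the pseudocount of 0.001 percentage points.

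The contigs lower in H3K27me3 by the widest margin were chr9_gl000198_random (-5.28), chrUn_gl000221 (-4.94), chr4_gl000194_random (-4.18), chr4_gl000193_random (-4.04), chrUn_gl000216 (-3.87), chrUn_gl000226 (-3.75), chrUn_gl000227 (-3.42), chrUn_gl000228 (-3.34), chrUn_gl000225 (-3.30) and chrUn_gl000214 (-2.48), all on the log2 scale of shares. chr9_gl000198_random had 0.0178% to 0.0848% in the untreated H3K27ac lists of the tested protocols, and a peak in 1 of 5 H3K27me3 lists at 0.0013%. chr4_gl000194_random had peaks in 25 of 25 H3K27ac lists and in 3 of 5 H3K27me3 lists, none above 0.000715%. Against these, chrUn_gl000220 differed by -0.95 (exact permutation test, adjusted p = 0.077) and chrUn_gl000224 by -0.80 (adjusted p = 0.078), and neither was called. On chr9_gl000198_random, chrUn_gl000221, chr4_gl000194_random and chr4_gl000193_random, 4, 1, 2 and 1 of the 5 H3K27me3 lists had no peak. Those lists entered as 0, so the size of these 4 differences depends in part on the pseudocount.

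Total signal in the downsampled lists kept 9 of the 17 calls in the same direction, 3 higher and 6 lower. On this measure 12% of the 50 sequences were lower in H3K27me3, all 6 of them contigs: chr9_gl000198_random, chrUn_gl000221, chr4_gl000194_random, chr4_gl000193_random, chrUn_gl000228 and chrUn_gl000227. Higher in H3K27me3 were 56% of the 50, which were 23 of 24 chromosomes and 5 of 26 contigs. chr9_gl000198_random had a total signal of 2526 to 34867 in the 16 H3K27ac lists and at most 1669 in the 4 H3K27me3 lists, a log2 difference of -3.28 (exact permutation test, adjusted p = 0.0028). chrUn_gl000221 had 3357 to 41111 in H3K27ac lists and 0 to 5155 in H3K27me3 lists, a log2 difference of -2.94 (adjusted p = 0.0028). chr1_gl000192_random had 26881 to 39171 in H3K27me3 lists and at most 4979 in H3K27ac lists, a log2 difference of 4.23 (adjusted p = 0.0028). chrUn_gl000220 and chrUn_gl000224, not called by share, were higher in H3K27me3 by 1.04 and 1.36 (adjusted p = 0.025 and 0.018), so their direction depended on the measure.

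**Figure D5:**
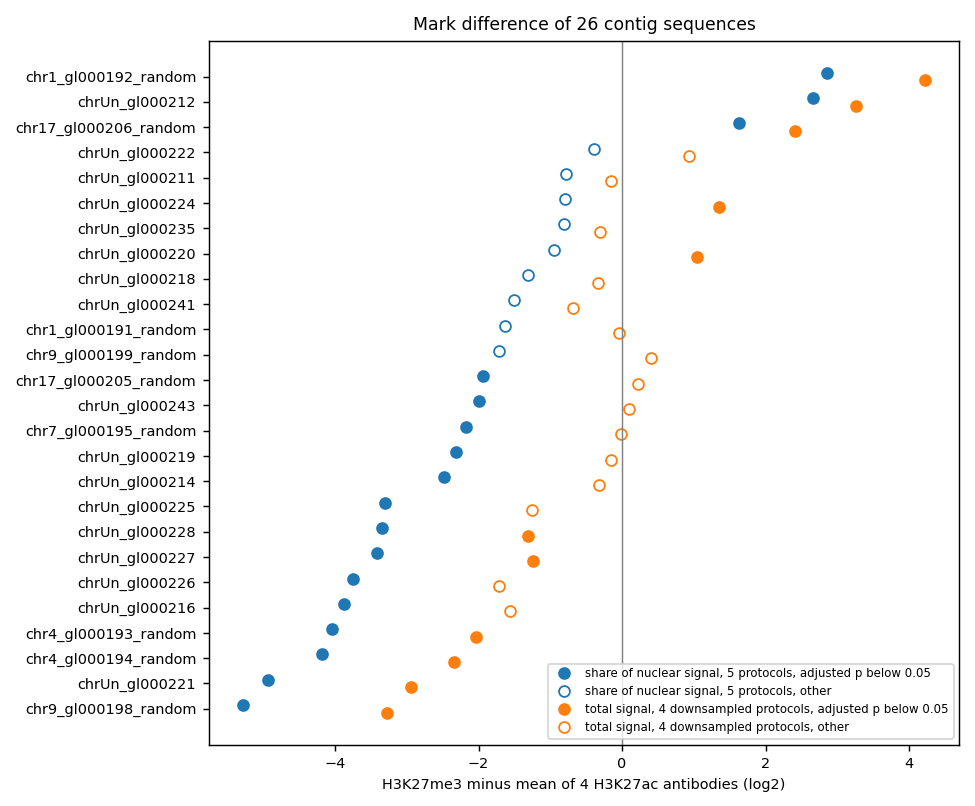
Log2 difference of H3K27me3 from the mean of the 4 H3K27ac antibodies for 26 contigs, as share of nuclear signal (blue, 5 protocols) and as total signal (orange, 4 downsampled protocols). Filled points passed an adjusted p of 0.05. The points at the top (3 contigs) lie to the right on both measures and those at the bottom (4 contigs) to the left on both.

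Among the 4 H3K27ac antibodies the contig share of nuclear signal spanned 1.26 in log2 (permutation test with 100000 resamples, p = 0.015, adjusted p = 0.037). Geometric means were 2.16% for ab4729, 4.68% for Diagenode, 4.75% for ab177178 and 5.21% for Active Motif, so ab4729 stood below 3 antibodies that lay close together. Without ab4729 the span was 0.16 (permutation test, adjusted p = 0.91), and the call was also lost without Active Motif (adjusted p = 0.063) or Diagenode (adjusted p = 0.066). Of the 50 sequences 46% differed between the antibodies, and 13 of the 26 contigs were among them, near that background. By total signal in the downsampled lists the figure was 20%, with 9 contigs and 1 chromosome, and 7 of the 13 contigs were called on both measures.

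Wide spans were found on 4 contigs that ran low in ab4729 lists. chr9_gl000199_random spanned 5.89 in log2 between the highest and lowest antibody mean (permutation test, adjusted p = 0.011). chrUn_gl000225 spanned 4.34 (permutation test, adjusted p = 0.016) and chrUn_gl000226 4.24 (permutation test, adjusted p = 0.013). chrUn_gl000216 spanned 3.65 (permutation test, adjusted p = 0.013), which was narrower than chrUn_gl000222 (3.83) and chrUn_gl000218 (3.76), both described below. chr9_gl000199_random had a median of 0.0115% with ab4729, 0.121% with ab177178, 0.216% with Active Motif and 0.276% with Diagenode, over 5 lists each. The highest ab4729 list reached 0.0553%, below all 5 lists of Active Motif (lowest 0.140%) and all 5 of Diagenode (lowest 0.222%). chrUn_gl000225 followed the same order at the low end, with medians of 0.0351% (ab4729), 0.404% (Active Motif), 0.489% (Diagenode) and 0.673% (ab177178). chrUn_gl000226 had medians of 0.0346%, 0.343%, 0.389% and 0.173% for the same antibodies. chrUn_gl000216 had 0.0406%, 0.695%, 0.415% and 0.343%. By total signal in the downsampled lists the spans of the 4 that ran low with ab4729 were 4.87, 4.19, 3.67 and 3.17 in the order first named. None passed (permutation test, adjusted p = 0.052, 0.052, 0.052 and 0.063).

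Some of the other called contigs were not lowest with ab4729. chrUn_gl000218 had a median of 0.0200% with ab4729 and 0.0201% with ab177178, and no peak in 4 of 5 Active Motif lists and 3 of 5 Diagenode lists (span 3.76, permutation test, adjusted p = 0.022). chr4_gl000194_random had medians of 0.0379% with ab177178, 0.0269% with ab4729, 0.0226% with Diagenode and 0.0103% with Active Motif (span 1.68, permutation test, adjusted p = 0.0015). The 5 ab177178 lists (lowest 0.0310%) lay above the 5 Active Motif lists (highest 0.0200%). chrUn_gl000219 had medians of 0.153% with ab177178, 0.140% with ab4729, 0.0873% with Active Motif and 0.0847% with Diagenode (span 0.69, permutation test, adjusted p = 0.022). These 3 were called by total signal too. The other 6 contigs called by share were chrUn_gl000222 (span 3.83), chrUn_gl000228 (1.93), chrUn_gl000224 (1.67), chrUn_gl000220 (1.57), chr4_gl000193_random (1.43) and chrUn_gl000214 (0.84). chrUn_gl000220 was lowest with ab4729 (median 0.622%) and had medians of 1.54% to 1.86% with the others. By median, chrUn_gl000222, chrUn_gl000228, chrUn_gl000224 and chrUn_gl000214 were also lowest with ab4729, and chr4_gl000193_random with Active Motif.

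Extraction changed no contig past the test. Column against SDS, 0% of the 50 sequences were called at an adjusted p under 0.05, and 0 of the 26 contigs. At an unadjusted p under 0.05 by the same exact sign-flip test there were 3 sequences, 2 of them contigs, and total signal also called 0. The 2 contigs were chrUn_gl000220, lower on the column in 9 of 10 pairs with a mean log2 difference of -0.56 (exact sign-flip permutation test, p = 0.0059, adjusted p = 0.26), and chr1_gl000192_random, lower in 7 of 10 pairs and higher in none (p = 0.016, exact, adjusted p = 0.26). The whole contig share differed by -0.16 ± 0.33 (SD, n = 10 pairs, higher on the column in 2, exact sign-flip permutation test, p = 0.15, adjusted p = 0.25). With chrM kept in the denominator it was -0.23 and passed (exact permutation test, adjusted p = 0.013). At 11 cycles it was lower on the column in 5 of 5 pairs (-0.32 ± 0.17, exact permutation p = 0.0625, the smallest possible), and at 13 cycles the mean difference was 0.00 ± 0.39, higher in 2 of 5. The 2 cycle numbers differed in this by 0.32 ± 0.42 (n = 5, exact permutation p = 0.19).

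Cycle number moved the share of 2 contigs past the test. At 13 against 11 cycles 4% of the 50 sequences were called, all of them lower, and both were contigs. chr17_gl000205_random was lower in 10 of 10 pairs with a mean log2 difference in share of -0.50, and chrUn_gl000221 in 10 of 10 pairs with -0.86 (exact sign-flip permutation test, p = 0.0020, the smallest possible, adjusted p = 0.049 for each). chrUn_gl000220 was lower in 9 of 10 pairs (-0.72), chr7_gl000195_random in 9 of 10 (-0.38) and chrUn_gl000243 in 9 of 10 (-0.76), and these 3 did not pass (exact permutation, adjusted p = 0.059 each). By total signal 0% of sequences were called. The differences there were -0.61 for chr17_gl000205_random (exact permutation test, p = 0.029, adjusted p = 0.17) and -0.97 for chrUn_gl000221 (p = 0.0039, adjusted p = 0.098), about as large as by share. Neither contig was called by share of peak number. The whole contig share differed by -0.45 ± 0.77 (SD, n = 10 pairs, higher in 3, exact sign-flip permutation test, p = 0.11, adjusted p = 0.21). The share for ab177178 went from 8.70% to 3.02% with SDS and from 8.15% to 2.37% on the column, while both Active Motif pairs were higher at 13 cycles. With chrM kept in the denominator the difference was -0.58 and passed (exact permutation test, adjusted p = 0.0039). Within SDS the cycle difference was -0.60 ± 0.66 and within column -0.29 ± 0.91 (n = 5 pairs each, exact permutation p = 0.13 and p = 0.69).

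With TSA, contig and mitochondrial shares were higher in some pairs and lower in others, and with 4 pairs the exact sign-flip permutation test cannot go below p = 0.125. The contig share went from 4.77% to 9.35% with ab177178, from 1.29% to 8.47% with ab4729 and from 2.37% to 6.12% with Diagenode at 1/50. With Diagenode at 1/100 it went from 4.67% to 3.53%. The mean log2 difference was 1.16 ± 1.28 (SD, n = 4 pairs, higher in 3, exact sign-flip permutation test, p = 0.25, adjusted p = 0.35). For the mitochondrial share it was 1.07 ± 2.88 (higher in 3 of 4 pairs, exact permutation p = 0.63, adjusted p = 0.63). Without the ab177178 pair its mean was -0.07. Read depth is not given for these lists, and its part in these differences was not tested.

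Of the 26 tested contigs, chrUn_gl000220 alone was higher with TSA in all 4 pairs, by 2.04 in mean log2 share, against 2% of all 50 sequences. chr1_gl000191_random alone was lower in all 4 (mean log2 difference -1.71), against 10% of all 50 sequences, the other 4 being chromosomes. Both have an exact sign-flip permutation p of 0.125, the smallest possible, and an adjusted p of 0.69. chrUn_gl000222 (2.52), chrUn_gl000228 (1.70), chrUn_gl000225 (1.55), chrUn_gl000226 (1.52) and chrUn_gl000216 (1.39) were higher in 3 of 4 pairs, with adjusted p = 0.69 each by the same exact test. That count was not particular to them. With smaller mean differences it also held for chrUn_gl000212, chr17_gl000205_random, chr4_gl000193_random, chr7_gl000195_random and chr9_gl000198_random. Among chromosomes it held for chr4, chr5, chr10, chr18 and chrY. All of these are differences in share, and totals of single contigs with TSA are not given here. The ab4729 library with TSA had a peak on 43 contigs, more than any other list.

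MACS2 peaks, called for the 6 untreated libraries at 15 cycles, lay on 41 contigs and on the mitochondrial genome, and each of the 41 also had a SEACR peak. Of these, 14 were held in all 6 MACS2 lists, and 7 were in the H3K27me3 list only. The mitochondrial genome was again a single peak in each list, starting at 1 and ending up to 7 bp past the SEACR end. The authors' fold enrichment of that peak ranked 1 to 9 within its list. Contig peaks took a larger part of the peaks in the MACS2 list for Active Motif (7.01% against 4.36%), ab177178 (2.57% against 1.46%), Diagenode at 1/100 (3.22% against 1.95%) and Diagenode at 1/50 (1.24% against 0.909%), in each case outside the 95% Wilson interval of the SEACR share. For ab4729 (0.871% against 0.754%) and CST9733 (0.413% against 0.434%) it lay inside. These intervals cover counting error of peaks only. Of the MACS2 contig peaks, 77.5% to 96.0% overlapped a SEACR peak of the same library by at least 1 bp.

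By the authors' fold, the leading MACS2 contig peak was on chrUn_gl000227 in 3 lists, starting between 73508 and 73589 and ending between 74037 and 74074. It was at chrUn_gl000228:116183-119751 for ab177178, inside the region that all 30 SEACR lists shared. For Diagenode at 1/100 it was at chr17_gl000205_random:84098-88321, inside the shared region of that contig. For CST9733 it was at chrUn_gl000220:100549-161750, a broad peak over the ribosomal DNA stretch. None of the 5 H3K27ac lists had its leading fold on chrUn_gl000220.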

How the data were processed

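Bowtie2 2.2.9, Trim Galore 0.6.6, bcl2fastq, SAMtools 1.3.1, bedtools 2.25.0, Picard 2.6.0, MACS2 and SEACR were the authors' tools and hg19 their build, per the submitters' processing notes, where roles are not stated. Peaks were called by the authors per library with duplicates removed, per the labels. SEACR settings and read depth are not given here, and the precision that depth allows is unknown. The deposited SEACR lists give total and maximum signal, and the deposited MACS2 lists a score, a fold enrichment ratio and −log10 p and q-values. Of these, total and maximum signal and the fold were used.

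Members were peaks whose sequence name was not a chromosome. Shares were compared as log2 of the share in percent plus 0.01 (0.001 for single sequences, and 1000 signal units for totals). Matched pairs were compared by exact two-sided sign-flip permutation, marks by exact permutation within protocols, and antibodies by 100000 resamples, in Python 3.11.15 with NumPy 2.4.6. Adjusted p-values are Benjamini-Hochberg over 10 tests of shares or over 50 sequences within a comparison. The tests of single sequences, TSA left out, were run on simulated independent normal values with a planted difference. The simulation had no lists without a peak and no shared denominator, so it does not cover those features. Named sequences were chrM, those in all lists, in 1 mark or called, up to 10 in each direction, and the 10 with the highest mean share. The members and lists were chosen with earlier results of these data known. No library has a replicate, and the labels do not say which libraries share a culture. Reads were amplified with no molecular identifiers, and Wilson intervals therefore cover counting error only.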

Additional observations from a re-analysis of the deposited data

Results flagged for a closer look

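The effect of TSA on both shares went in opposite directions between antibody conditions, each with 1 pair of libraries at 15 cycles, and the difference between pairs was not tested. The mitochondrial share was lower with TSA by 2.44 on the log2 scale for Diagenode at 1/100 (a difference of -2.44), and higher by 4.49 for ab177178, 1.77 for Diagenode at 1/50 and 0.46 for ab4729. The contig share of nuclear signal differed by -0.40 for Diagenode at 1/100, and by 2.70 for ab4729, 1.36 for Diagenode at 1/50 and 0.97 for ab177178. In both measures the pair that went down was Diagenode at 1/100. Nuclear signal, the denominator of the contig share, was lower with TSA in each pair.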

How the results depend on the processing

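Of 104 alternative values of the 10 tests of shares, 86 kept their direction and their side of the threshold. The antibody difference in mitochondrial share passed in 9 of 9 alternatives, and that in contig share in 6 of 11. The mark difference passed in 6 of 10 for the mitochondrial share and 10 of 12 for the contig share. Both counts for the contig share include the alternative without haplotypes. As percentage points the mitochondrial difference between marks was -21.3 (adjusted p = 0.076, exact permutation), that between 13 and 11 cycles turned to 4.76, and the contig span over antibodies was 3.13 (permutation, adjusted p = 0.13). Among the 3000 strongest peaks the mark differences were -1.87 and -0.83, and the contig span was 1.36 (permutation, adjusted p = 0.057). As signal per covered base the mitochondrial difference was -0.89 between marks and -0.27 with TSA. With chrM in the denominator the contig differences were -0.23 for column and -0.58 for cycles, both then passing. Leaving out antibodies gave mitochondrial differences of -0.0694 to 2.48 with TSA and -0.38 to 0.0566 with cycles (0.0266 without CST9733), and contig spans of 0.16 to 1.26. Without a denominator (chosen after seeing the data), the mark differences were -1.40 and 0.35.

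Contigs called went from 2 to 0 for cycles with a peak in at least 1 list required, by peak number and by total signal. For the marks they went from 17 to 29 with a peak in at least 1 list and 11 by total signal, and for antibodies from 13 to 5 by peak number. The 9 contigs in all lists became 5 with at least 2 peaks and 5 among the 3000 strongest peaks. The 8 shared regions became 0 at 50% covered. Contig shares of peaks by MACS2 were 2.57% (ab177178), 7.01% (Active Motif), 3.22% (Diagenode at 1/100) and 1.24% (Diagenode at 1/50). The cause of these changes was not tested. Leaving out haplotypes changed nothing, as none held a peak. Also chosen after seeing the data: without the column protocol at 11 cycles the mark differences were -3.51 and -1.83 and 16 contigs were called, and without the Diagenode pair at 1/100 the TSA differences were 2.24 and 1.68. No fit with a replicate block was possible because each condition has 1 library. The pairs compared are matched conditions.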
